A study of Mus musculus with 6 samples.

Results

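The myosin heavy chain genes of striated muscle were followed in gastrocnemius, the large calf muscle, of old mice that had received inotodiol or vehicle. The 6 genes were chosen by symbol and not by a threshold on their values: Myh4, Myh2, Myh1 and Myh7, which encode the adult IIB, IIA, IIX and slow chains, and Myh8 and Myh3, which encode the perinatal and embryonic chains. They are 6 of the 23282 rows of the count tables, and all 6 passed the filter on low counts, which 11700 rows passed. The inotodiol group held 3 wild-type male C57/BL6J mice, 20 months old, given inotodiol, a triterpenoid of the chaga mushroom, by mouth at 0.35 mg/kg every day for 10 weeks. The vehicle group held 3 mice of the same genotype, strain, sex and age. They received 40% polyethylene glycol, 5% Tween 80 and 0.9% saline for 10 weeks. Whether the inotodiol mice were given the compound in that same mixture is not stated in the labels. Counts came from whole muscle, so fewer fibres of a type and less RNA in each fibre cannot be told apart.

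Myosin heavy chains form the thick filaments of the sarcomere and carry the motor that splits ATP and pulls on actin. The isoform in a fibre goes with its speed of shortening: IIB fibres are the fastest and most glycolytic, IIX and IIA fibres are intermediate, and slow fibres are oxidative and resist fatigue. In mice the gastrocnemius is a mainly fast muscle. The embryonic and perinatal chains are used before birth and shortly after, and are made again in regenerating fibres.

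Myh3, Myh2, Myh1, Myh4 and Myh8 lie in this order on the forward strand of mouse chromosome 11, between the start of Myh3 at 67078300 and the end of Myh8 at 67308634 (GENCODE M21, GRCm38). Myh4 spans 67238029 to 67260446, Myh1 67200052 to 67224575 and Myh2 67171027 to 67197517. Myh7 lies apart, on the reverse strand of chromosome 14 from 54970684 to 54994626. The promoters of 4 neighbours are shown because they share long runs of bases although their transcripts differed widely in level. The windows run from 250 bases before to 50 bases after the RefSeq start (GRCm38.p6, forward strand), and capitals mark 2 runs that a search for the longest common stretches found.
Myh4, chr11:67237562-67237861: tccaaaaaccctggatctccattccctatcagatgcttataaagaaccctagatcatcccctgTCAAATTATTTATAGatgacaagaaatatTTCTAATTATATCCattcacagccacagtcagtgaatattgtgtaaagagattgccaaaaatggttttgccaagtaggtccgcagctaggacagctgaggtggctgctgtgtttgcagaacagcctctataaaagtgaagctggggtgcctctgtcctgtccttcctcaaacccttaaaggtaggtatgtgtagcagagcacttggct
Myh1, chr11:67199852-67200151: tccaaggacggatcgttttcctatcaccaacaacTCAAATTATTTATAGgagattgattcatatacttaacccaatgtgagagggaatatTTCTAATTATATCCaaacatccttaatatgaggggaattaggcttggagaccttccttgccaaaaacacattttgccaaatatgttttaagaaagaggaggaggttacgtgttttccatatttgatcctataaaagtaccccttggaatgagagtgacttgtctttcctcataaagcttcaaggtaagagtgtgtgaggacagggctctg
Myh2, chr11:67170777-67171076: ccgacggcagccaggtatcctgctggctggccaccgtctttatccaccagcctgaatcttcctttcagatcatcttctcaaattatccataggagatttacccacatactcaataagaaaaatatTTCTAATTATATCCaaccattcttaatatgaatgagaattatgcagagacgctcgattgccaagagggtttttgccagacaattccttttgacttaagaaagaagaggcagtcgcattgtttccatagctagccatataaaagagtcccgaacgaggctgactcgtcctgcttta
Myh8, chr11:67276874-67277173: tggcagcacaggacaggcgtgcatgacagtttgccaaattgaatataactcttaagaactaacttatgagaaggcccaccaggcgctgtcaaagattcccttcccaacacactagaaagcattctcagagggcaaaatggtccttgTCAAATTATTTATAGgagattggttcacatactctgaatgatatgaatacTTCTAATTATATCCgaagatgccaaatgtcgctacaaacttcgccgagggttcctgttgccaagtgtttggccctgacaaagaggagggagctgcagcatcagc

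The longest run common to Myh1, Myh4 and Myh8 was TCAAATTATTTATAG, which began 187 bases before the start of Myh4, 216 before that of Myh1 and 104 before that of Myh8. The longest run common to all 4 of these promoters was TTCTAATTATATCC, which began 158 bases before the start of Myh4, 160 before Myh1, 125 before Myh2 and 54 before Myh8. Searched on both strands of 32817 RefSeq promoter windows of 26994 genes, the first run was in 3 windows (0.0091%) and the second in 4 (0.0122%), and these were the windows of the genes just named. The runs were taken from these promoters, so the counts describe how rare they are and are no test. The windows of Myh3 and Myh7 held neither run.

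The coding sequences are close enough to matter for counting. Myh1 and Myh2 were identical at 91.1% of aligned bases, Myh1 and Myh4 at 90.2% and Myh4 and Myh8 at 87.99%, whereas Myh3 and Myh4 were identical at 81.1%. Myh7 was identical to Myh6, the cardiac alpha chain, at 91.7% and to Myh4 at 78.6%. Of the stretches of 50 bases in each transcript, 26.7% for Myh1, 26.9% for Myh2, 18.9% for Myh4, 21.4% for Myh8, 22.2% for Myh7 and 4.81% for Myh3 were also present in another myosin heavy chain transcript. For stretches of 100 bases these shares were 9.73%, 9.17%, 3.85%, 6.61%, 11.2% and 1.15%. How reads that matched several places were counted is not given in the sources used here, so the split of counts between single members is uncertain, and the sum over the adult members was also examined. The labels name a Quant-Seq kit but do not say whether reads came from transcript ends or from whole transcripts. If from the ends, shares over whole transcripts do not measure that uncertainty and the division by length does not apply; the lengths used, 6016 to 6230 bases, are nearly equal. Myhas overlaps Myh1, and 9430073C21Rik overlaps Myh2, on the opposite strand, and Mhrt overlaps Myh7; the strand setting of the counting is not given either.

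**Figure D1:**
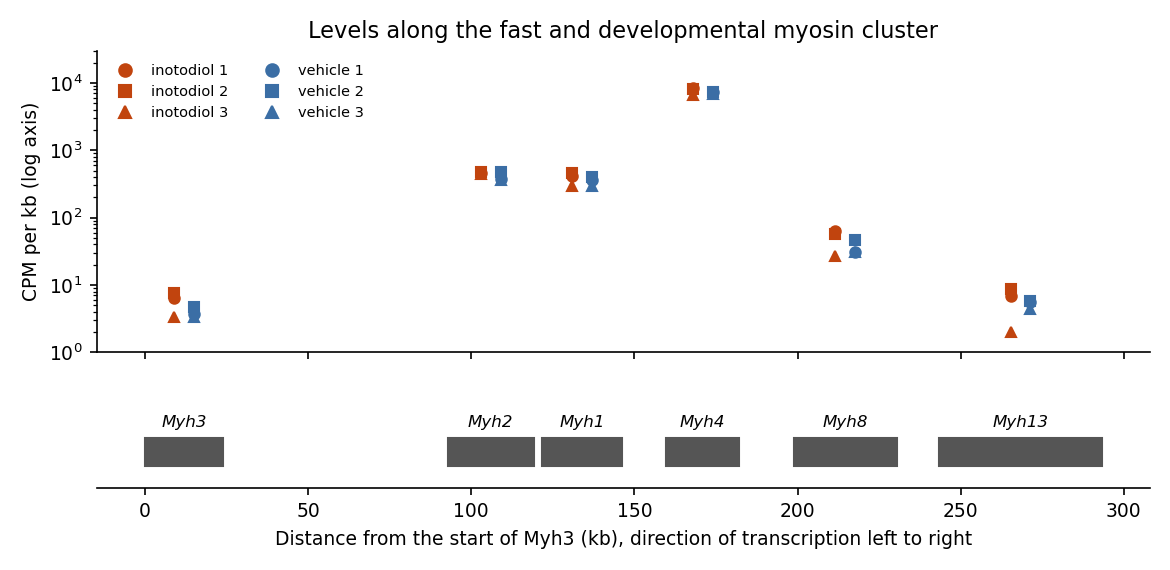
Levels along the chromosome 11 cluster: the upper panel plots CPM per kb of transcript on a log axis for each of the 6 libraries (inotodiol left, vehicle right), and the lower panel the gene spans as distance from the start of Myh3. Myh4 stands far above its neighbours Myh1 and Myh8 in every library.

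Libraries held 8961893 to 9953764 counts, of which the 6 genes took 4.54% to 5.23%. Markers of skeletal muscle fibres such as Acta1, Ckm and Tnnt3 were abundant in every library (8 genes, summed at 79197 to 93271 unscaled CPM). The ribosomal RNA precursor Rn45s took 10.2%, 9.56% and 4.33% of counts in inotodiol libraries 1 to 3, against 3.97%, 6.82% and 4.38% in vehicle libraries 1 to 3. The 10 hepatocyte markers together took 619, 260 and 96.7 unscaled CPM in inotodiol libraries 1 to 3 and 15.6, 83.6 and 54.9 in vehicle libraries 1 to 3. The 8 exocrine pancreas markers summed to 50.6 unscaled CPM in inotodiol 1, with no more than 1.08 in any of the other 5 libraries. The 5 erythroid markers summed to 7638, 13980 and 4374 unscaled CPM in inotodiol libraries 1 to 3, against 7964, 5751 and 5610 in vehicle libraries 1 to 3. Inotodiol 3 had the most Schwann cell transcripts (5 markers, 190 unscaled CPM against 68.2 to 97.4 in the other 5 libraries). Vehicle 3 had the most fibroblast transcripts (6 markers, 2009 against 879 to 1149) and macrophage transcripts (8 markers, 268 against 53.2 to 167). The part of these markers in the results below was not tested.

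Myh4 was the most abundant member in all 6 libraries by a wide margin. Per kb of transcript, the mean over the 6 libraries was 7437 ± 706 CPM per kb for Myh4, 433 ± 48.99 for Myh2, 372 ± 70.2 for Myh1, 45.3 ± 6.91 for Myh7, 42.8 ± 15.2 for Myh8 and 4.90 ± 1.82 for Myh3 (SD, n = 6). Myh4 exceeded Myh2 by a mean of 17.2-fold, and its log2 ratio to Myh2 ranged from 3.90 to 4.28. Myh2 lay above Myh1 in 6 of 6 libraries, by a mean of 1.17-fold and with log2 ratios as low as 0.034. Myh1 lay 8.19-fold above Myh7, again in 6 of 6. Each of these steps, and that of 8.74-fold between Myh8 and Myh3, had an exact sign-flip p of 0.031 over the 6 libraries, the smallest that 6 libraries can give, and 0.039 adjusted over the 5 steps. The order was taken from the means of these same 6 libraries, with both groups pooled. These p therefore describe how repeatable the steps were and are no test of the order. For Myh2 and Myh1, a constant error in assigning shared reads would give the same p. Myh7 and Myh8 did not differ beyond their spread: Myh7 was the higher in 4 of 6 libraries, and the exact sign-flip p was 0.53. Inotodiol 1 and 2 were the libraries in which Myh8 was the higher.

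**Figure D2:**
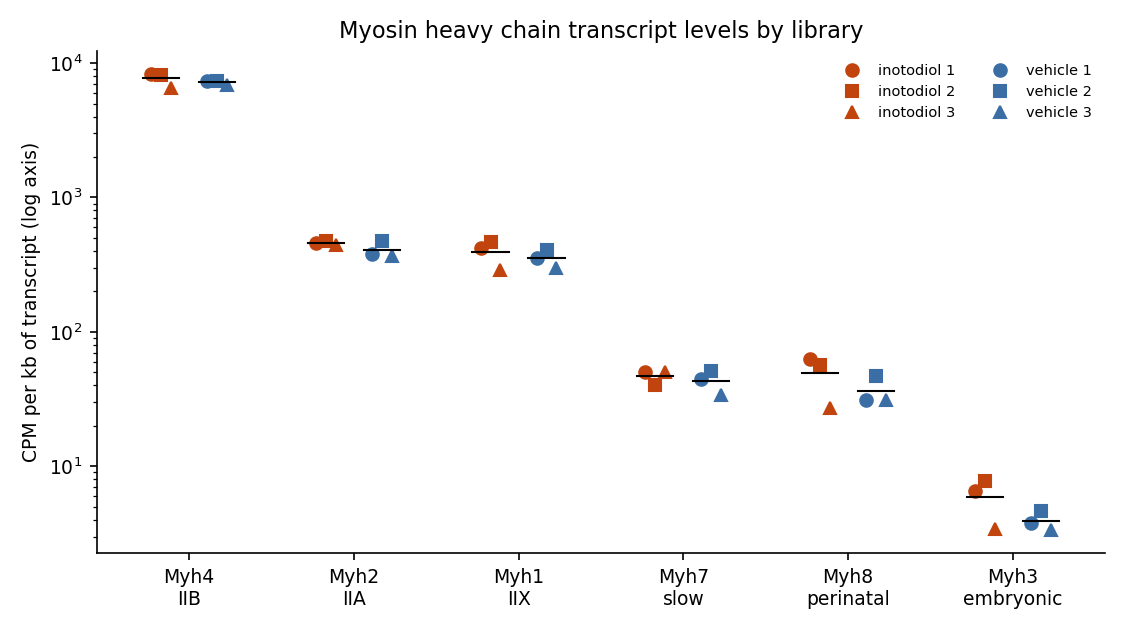
Level of each member in CPM per kb of transcript (log axis), with 1 point for each library and a black bar at each group mean, inotodiol left and vehicle right. The order Myh4, Myh2, Myh1 holds in every library, while Myh7 and Myh8 overlap.

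The comparison of inotodiol with vehicle asks whether the old muscle's myosin transcripts differed with treatment. These data hold no fibre counts and no protein, so they do not measure the share of each fibre type. No member was called in edgeR's quasi-likelihood test, with adjusted p from 0.96 to 0.99. Across all 11700 genes tested 0 were called (0%), as in limma-voom. DESeq2 called 1 gene, Gc, a hepatocyte marker and no member, both over 16479 genes and over 11697 genes that passed edgeR's filter. At an unadjusted p under 0.05 there was 1 of the 6 members, Myh3, against 570 genes, or 4.87% of those tested. In none of the 6 members did the groups part, against 10.4% of all genes tested. All 6 log2 fold changes were above 0, at 0.099 to 0.58, and 49.9% of all genes were above 0. The 6 genes were measured in the same libraries, so they are not 6 independent observations. When counts were scaled by library totals alone, Myh4 was at -0.025 and the median of all genes moved from -0.00073 to -0.12.

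Myh4, the IIB chain, had 50226, 49139 and 39473 TMM-scaled CPM in inotodiol libraries 1 to 3, against 44434, 43910 and 41255 in vehicle libraries 1 to 3. The inotodiol libraries included both the highest values and the lowest. The fold was 1.07 with a 95% interval of 0.91 to 1.26 (edgeR adjusted p = 0.98). The interval holds both a lower and a higher level of the dominant isoform. The log2 fold change of 0.099 was 0.037 without inotodiol replicate 1 and 0.20 without inotodiol replicate 3.

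Myh2, the IIA chain, had 2775, 2904 and 2682 CPM in inotodiol libraries 1 to 3, against 2311, 2899 and 2216 in vehicle libraries 1 to 3. All 3 inotodiol libraries lay above vehicle 1 and 3, and vehicle 2 was level with the highest of them. Its log2 fold change was 0.17 ± 0.12 (SE; 95% interval -0.091 to 0.43), and it was 0.31 without vehicle replicate 2 and 0.097 without vehicle replicate 3. Myh1, the IIX chain, had 2552, 2836 and 1763 CPM in inotodiol libraries 1 to 3, against 2172, 2455 and 1810 in vehicle libraries 1 to 3. The lowest value and both highest came from inotodiol mice. Its log2 fold change was 0.15 ± 0.16 (95% interval -0.20 to 0.51), and 0.0079 without inotodiol replicate 2 and 0.33 without inotodiol replicate 3.

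Myh7, the slow chain shared with heart ventricle, had 315, 252 and 314 CPM in inotodiol libraries 1 to 3, against 279.9, 319 and 212 in vehicle libraries 1 to 3. The groups overlapped almost wholly, with vehicle 3 lowest and vehicle 2 highest. The log2 fold change was 0.12 ± 0.16 (95% interval -0.22 to 0.46), and it was -0.029 without vehicle replicate 3.

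Of the 6 genes, the developmental members had the largest fold changes. Their counts were small beside those of Myh4, at 0.0042 to 0.0077 of the Myh4 count for Myh8 and 0.00049 to 0.00095 for Myh3. Of the 50-base stretches of the Myh8 transcript, 21.4% are also in another myosin heavy chain transcript. Whether reads of Myh4 or another chain were counted to Myh8 or Myh3 was not tested. Myh8, the perinatal chain, had 388, 351 and 167 CPM in inotodiol libraries 1 to 3, against 189.8, 289.8 and 193 in vehicle libraries 1 to 3. Inotodiol 1 and 2 were the highest of the 6 and inotodiol 3 was the lowest. The fold was 1.35 (95% interval 0.92 to 1.97; edgeR adjusted p = 0.96). Myh3, the embryonic chain, had 39.3, 46.5 and 20.5 CPM in inotodiol libraries 1 to 3, against 22.7, 28.1 and 20.1 in vehicle libraries 1 to 3, from 200 to 419 counts per library. Inotodiol 3 sat among the vehicle values. The fold was 1.497 (95% interval 1.01 to 2.22), with an edgeR adjusted p of 0.96. Its unadjusted edgeR p of 0.0456 was 0.0861 with library totals, 0.086 in limma-voom, 0.0414 in DESeq2, 0.0252 with the replicate block and 0.00952 with no filter on low counts. With single libraries left out it ranged from 0.00115 without inotodiol replicate 3 to 0.25 without inotodiol replicate 2.

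Within the inotodiol group the coefficient of variation was 39.1% for Myh8 and 37.9% for Myh3, against 23.3% for Myh1, 12.8% for Myh4, 12.3% for Myh7 and 3.99% for Myh2. In vehicle muscle it was 25.4% for Myh8, 17.1% for Myh3, 15.1% for Myh1, 3.94% for Myh4, 20.0% for Myh7 and 14.9% for Myh2. When inotodiol replicate 3 was left out, Myh8 stood at 0.72 and Myh3 at 0.86 on the log2 scale, and neither was called (lowest edgeR adjusted p of any member 0.23). For Myh3 the value was 0.34 without inotodiol replicate 2, and for Myh8 it was 0.21 without inotodiol replicate 1 and 0.67 without vehicle replicate 2. The 3 libraries with the most Myh8 and the most Myh3, inotodiol 1, inotodiol 2 and vehicle 2, were also the 3 with the largest share of Rn45s. The same 3 libraries had the most Myh1, so this was not particular to the developmental members. Inotodiol 1 and 2 had the most hepatocyte transcripts as well. Erythroid transcripts were highest in inotodiol 2 and lowest in inotodiol 3. The part of these in the levels of Myh8, Myh3 and Myh1 was not tested.

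**Figure D3:**
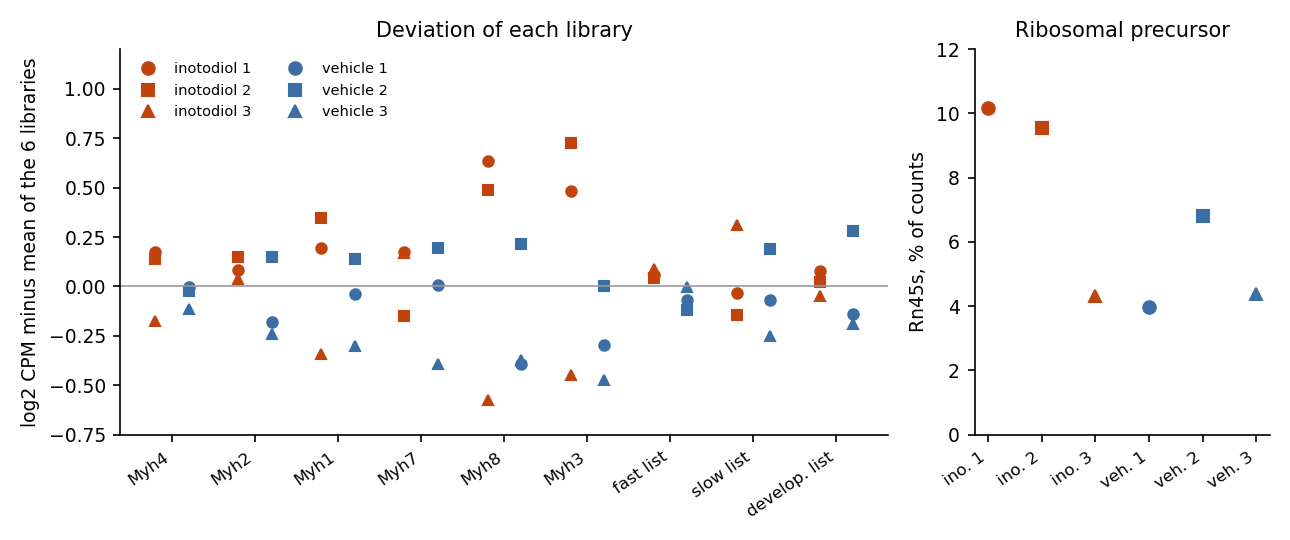
Left, log2 CPM of each member in each library minus its mean over the 6 libraries, beside the mean of the same quantity over the fast, slow and developmental lists; right, the share of Rn45s in counts. Myh4, Myh1, Myh8 and Myh3 were highest in inotodiol 1 and 2, where Rn45s was 10.2% and 9.56%, and low in inotodiol 3, where it was 4.33%.

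The make-up of the adult pool, which does not depend on how libraries are scaled to each other, was close in the groups. Myh4 made up 90.0%, 89.2% and 89.4% of the adult transcripts per length in inotodiol libraries 1 to 3, and 90.4%, 88.7% and 90.8% in vehicle libraries 1 to 3. The means were 89.5 ± 0.41% with inotodiol and 89.96 ± 1.13% with vehicle (SD, n = 3 each), a difference of -0.42 points (exact permutation p = 0.60, where 0.10 is the smallest possible). That difference was -1.07 points without vehicle replicate 2 and -0.013 without vehicle replicate 3. Myh2 averaged 5.38 ± 0.56% with inotodiol and 5.09 ± 0.61% with vehicle, and Myh1 averaged 4.52 ± 0.57% and 4.41 ± 0.48% in the same order. Myh7 averaged 0.56 ± 0.12% with inotodiol and 0.54 ± 0.086% with vehicle. No share parted the groups, and over the 8 tests of shares, ratios and the summed level the adjusted p was 0.93 to 1. Counting error of a share was small, since the widest Wilson 95% interval was 0.18 points; it covers counting error only.

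**Figure D4:**
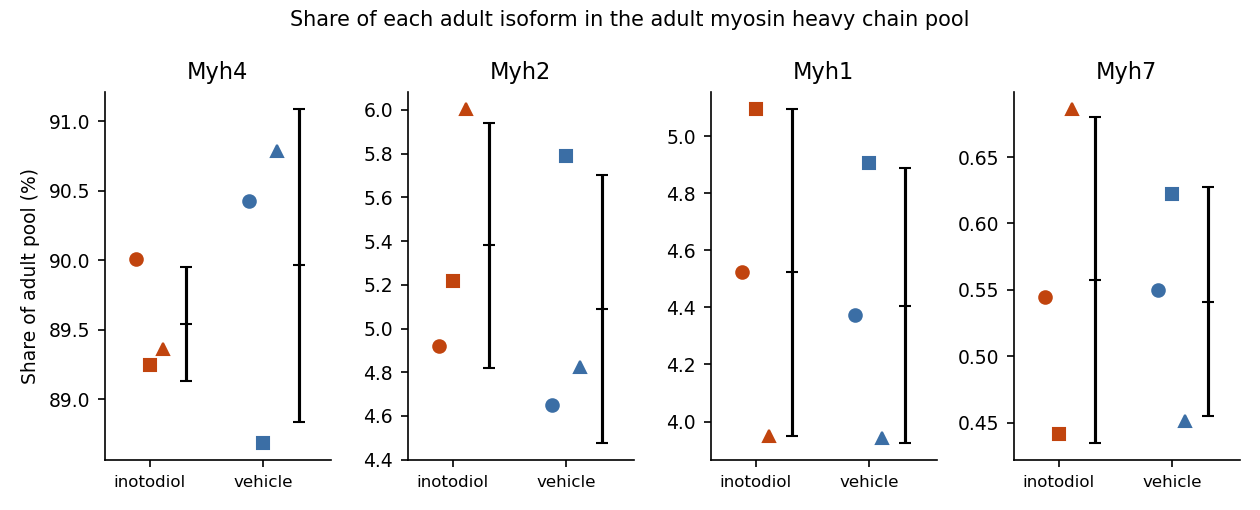
Share of each adult isoform in the sum of the 4 adult isoforms, per transcript length, with 1 point for each library and the mean with its SD beside it, inotodiol left and vehicle right. Each panel has its own axis, which does not start at 0; Myh4 lies between 88.7% and 90.8%, and the groups overlap in every panel.

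Ratios of isoforms within a library also overlapped between the groups. They were taken from the same counts as the shares, so they are no separate line of support. The log2 ratio of Myh4 over Myh1 averaged 4.31 ± 0.18 with inotodiol and 4.36 ± 0.18 with vehicle, and that of Myh2 over Myh7 averaged 3.29 ± 0.24 and 3.24 ± 0.17 in the same order (SD, n = 3 each). The log2 ratio of Myh1 over Myh2 was -0.12, -0.034 and -0.61 in inotodiol libraries 1 to 3, against -0.089, -0.24 and -0.29 in vehicle libraries 1 to 3. Inotodiol 3 stood out here, with the least IIX relative to IIA transcript of the 6 mice. The summed adult level was 55868, 55130 and 44232 CPM in inotodiol libraries 1 to 3, against 49197, 49584 and 45494 in vehicle libraries 1 to 3 (exact permutation p = 0.40). Its mean difference was 3652 CPM higher with inotodiol, and -632 CPM when library totals alone set the scale. It was 1137 CPM with library totals that leave out Rn45s, and from 1589 without inotodiol replicate 1 to 7407 without inotodiol replicate 3.

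Genes that accompany the fast and slow chains were read from lists of fibre-type genes without the myosin heavy chains. Of 16 fast fibre genes, 16 had a log2 fold change above 0 (0.017 to 0.28), with a median of 0.088, and none was called. Of all genes tested, 49.9% were above 0. The 16 genes were measured in the same 6 libraries, so they are not 16 independent observations, and the list was not tested as a set. With library totals the median of the list was -0.027. That setting moved the median of all genes from -0.00073 to -0.12, beside which the library-total medians of the lists below are also to be read. Tpm1, a tropomyosin that controls access of myosin to actin, had 23775, 21776 and 21620 CPM in inotodiol libraries 1 to 3, against 16762, 19061 and 19372 in vehicle libraries 1 to 3, a log2 fold change of 0.28 ± 0.10. For Tpm1 the groups parted, as they did for Pfkm, the muscle phosphofructokinase (0.23 ± 0.12), and Myl1, the fast essential light chain (0.18 ± 0.10). Tnnt3, the fast troponin T, stood at 0.22 ± 0.13 and overlapped. Each had an edgeR adjusted p of 0.96. Averaged over the list, log2 CPM minus each gene's mean was 0.058, 0.042 and 0.089 in inotodiol libraries 1 to 3, against -0.069, -0.12 and -0.0028 in vehicle libraries 1 to 3. That 3 of 16 genes parted is to be read beside the 10.4% of all genes that did.

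Of 12 slow fibre genes 6 were above 0 and the median was 0.00068, with none called. With library totals this median was -0.11, and it was -0.14 without vehicle replicate 3 and 0.14 without vehicle replicate 2. The slow troponin T gene Tnnt1, picked after its values were seen, had 378, 322 and 394 CPM in inotodiol libraries 1 to 3, against 400.2, 424 and 285 in vehicle libraries 1 to 3, highest in vehicle 2 and lowest in vehicle 3, as was Myh7. The smallest p in this list belonged to Csrp3, a muscle LIM protein of the Z disc, and Ankrd2, an ankyrin repeat protein that responds to stretch. Csrp3 had 84.3, 73.3 and 201 CPM in inotodiol libraries 1 to 3, against 57.6, 79.8 and 60.6 in vehicle libraries 1 to 3. Ankrd2 had 435, 349.6 and 789 CPM in inotodiol libraries 1 to 3, against 309, 409 and 295 in vehicle libraries 1 to 3. Inotodiol 3 was far above the other 5 mice for both, and without it the log2 fold changes were 0.26 and 0.21 in place of 0.86 and 0.63. Inotodiol 3 was also the library with the most Schwann cell transcripts, at 190 unscaled CPM. Neither was called (edgeR adjusted p = 0.95 and 0.96), other than with no filter on low counts. Myl2, the slow regulatory light chain, stood at 0.38 ± 0.18 and Tpm3, the slow tropomyosin, at -0.24 ± 0.18. Without inotodiol replicate 3 Myl2 stood at 0.19, and without vehicle replicate 1 Tpm3 stood at 0.0050.

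Of 29 transcription and signalling genes that set fast or slow programmes, 26 were tested; 15 were above 0, the median was 0.046 (-0.077 with library totals and -0.053 without inotodiol replicate 2) and none was called. Rcan1, a feedback inhibitor and target of the calcineurin pathway that favours slow genes, had 107, 130 and 193 CPM in inotodiol libraries 1 to 3, against 81.9, 107 and 81.1 in vehicle libraries 1 to 3. Again inotodiol 3 was highest, and the log2 fold change of 0.67 ± 0.20 was 0.39 without it (edgeR adjusted p = 0.75; called with no filter on low counts). Nfatc1, the transcription factor that calcineurin activates, had 25.9, 23.4 and 24.3 CPM in inotodiol libraries 1 to 3, against 26.2, 36.5 and 29.96 in vehicle libraries 1 to 3, a log2 fold change of -0.33 ± 0.19. Its groups parted by a narrow gap. Vgll2, a muscle cofactor of TEAD factors, stood at 0.19 ± 0.13 and the nuclear receptor Esrrg at 0.28 ± 0.22. Tbx15, which favours fast glycolytic fibres, stood at 0.051 ± 0.15, and Sox6, which represses slow genes, at 0.097 ± 0.15; both were picked after their values were seen.

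Of 11 genes that fold, space or degrade thick filament proteins, 8 were above 0 with a median of 0.12, and none was called; with library totals the median was -0.012. Unc45b, the myosin chaperone, stood at 0.18 ± 0.13 and its partner Hsp90aa1 at 0.22 ± 0.16. The ubiquitin ligase gene Trim54 stood at 0.23 ± 0.14 and Myom2, an M band protein, at 0.15 ± 0.11. All 4 overlapped between groups (edgeR adjusted p = 0.96). Trim63, the ligase that marks myosin heavy chain for breakdown, stood at -0.022 ± 0.16 and was picked after its value was seen.

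The genes of development, regeneration and denervation that would accompany Myh3 and Myh8 did not share one direction. Of 14 listed, 9 were tested, 4 were above 0, the median was -0.19 (0.18 without vehicle replicate 2) and none was called. Chrna1, the acetylcholine receptor alpha subunit, which rises in denervated fibres, had 21.9, 16.98 and 17.6 CPM in inotodiol libraries 1 to 3, against 24.9, 26.6 and 32.7 in vehicle libraries 1 to 3. Its groups parted, with a log2 fold change of -0.57 ± 0.20 and an edgeR adjusted p of 0.95. The myogenic factors Myog and Myod1 stood at 0.54 ± 0.39 and 0.42 ± 0.33, and the embryonic and cardiac troponin T gene Tnnt2 at 0.61 ± 0.47. Myog ranged from 0.27 without vehicle replicate 3 to 1.10 without vehicle replicate 2. The satellite cell gene Pax7 and the fetal receptor subunit Chrng, picked after their values were seen, were too low to test, at most 1.30 and 3.35 CPM in any library.

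**Figure D5:**
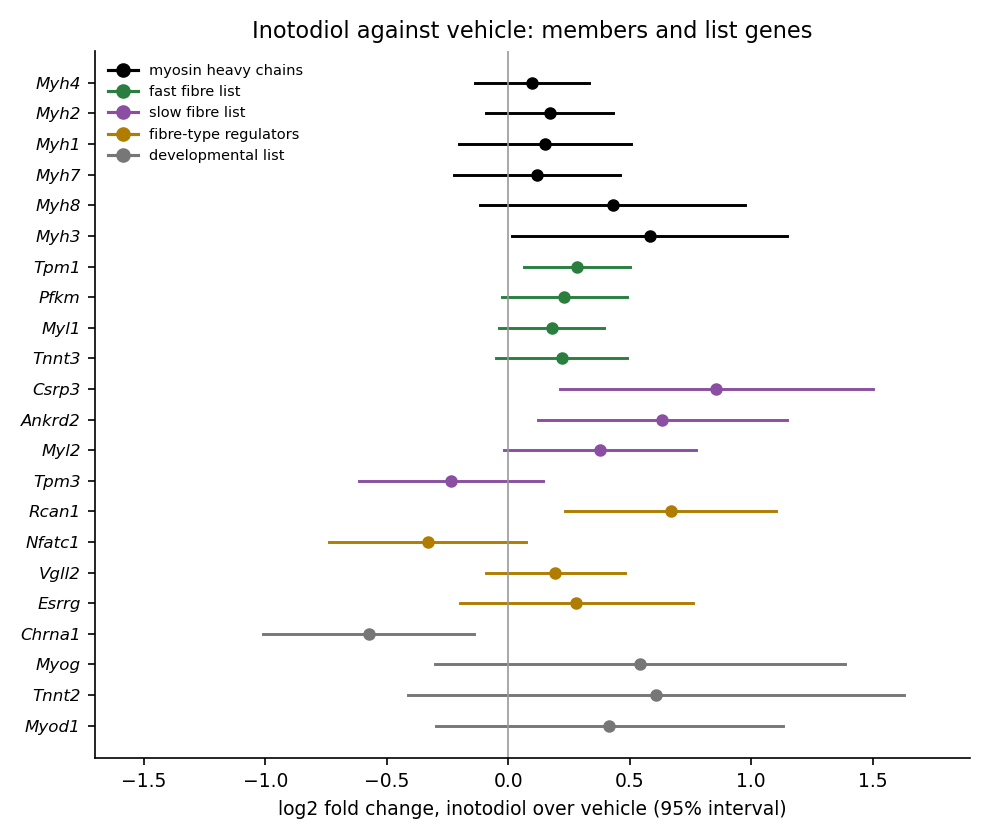
Log2 fold changes of inotodiol over vehicle with 95% intervals (edgeR) for the 6 members and for the 4 genes with the smallest p in each of 4 lists. Of the members the interval of Myh3 alone lies above 0, from 0.015 to 1.15, without a call after adjustment. Myh4 is drawn at 0.099, and its value of -0.025 with library totals is not drawn.

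Among the other heavy chains of the myosin II family, 7 of 8 genes were tested, 4 were above 0 and the median was 0.16 (-0.098 without inotodiol replicate 2 and -0.091 in limma-voom); none was called. Myh10, a non-muscle chain, had 40.8, 46.9 and 44.5 CPM in inotodiol libraries 1 to 3, against 26.1, 37.5 and 23.8 in vehicle libraries 1 to 3, and its groups parted. Its log2 fold change was 0.60 ± 0.20, with an edgeR adjusted p of 0.89. Myh7b, an ancient striated muscle chain, stood at 0.43 ± 0.24 and Myh11, the smooth muscle chain, at 0.30 ± 0.25, which was 0.12 without inotodiol replicate 2. Myh6, the cardiac alpha chain, stood at -0.20 ± 0.22, and at 0.058 without vehicle replicate 2. Myh13, the extraocular chain next to Myh8 on chromosome 11, was picked after its values were seen. It had 41.9, 52.7 and 12.3 CPM in inotodiol libraries 1 to 3, against 33.6, 35.2 and 26.9 in vehicle libraries 1 to 3. The inotodiol values lay on both sides of the vehicle values.

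The genes most like each member over the 6 libraries were sought among 8477 others with a mean of at least 5 CPM, by Pearson's r of log2 CPM, as a description of 6 points that share library and depth. The best of 8477 genes over only 6 points are bound to have a high r, so no shared function is read from them. For Myh4 they were Tpr, Rgs5 and Pdia6 (r = 0.99, 0.99 and 0.98). For Myh1 they were Arid4b, Zbtb38 and Khk (r = 0.996, 0.99 and 0.99), and for Myh2 Rpl7l1, Nmrk2 and Myog (r = 0.98, 0.97 and 0.97). For Myh7 they were Them4, Hadha and Mau2 (r = 0.98, 0.98 and 0.97). For Myh8 they were Sltm, Ash1l and Wasf2 (r = 0.99 for each), and for Myh3 Ktn1, Dync1li1 and Parp1 (r = 0.98 for each). No member was among the 3 genes most like another. This does not mean that the members varied apart. Myh4, Myh1, Myh8 and Myh3 were each highest in inotodiol 1 and 2, while Myh2 and Myh7 were not.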

How the data were processed

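The authors deposited 1 table per mouse with raw read counts for each gene symbol. Bowtie2, bedtools and the mm10 build are named in the submitters' processing notes. Their versions, the annotation, the strand setting and the handling of reads with several matches are not given there. A Lexogen Quant-Seq kit turned total RNA into libraries, per the labels' protocols. Of 23282 rows, 11700 passed edgeR's filterByExpr (minimum count 10, minimum total 15). Counts were scaled by TMM and tested with edgeR 4.0.16 in R 4.3.3 (quasi-likelihood, two-sided, group as the only term), with Benjamini-Hochberg adjustment over all genes at 0.05; limma 3.58.1 and DESeq2 1.42.0 were alternatives. CPM are TMM-scaled unless called unscaled. P-values of edgeR, limma and DESeq2, and the edgeR intervals, rest on the spread among 3 mice per group, moderated by that of other genes. Exact permutation p-values use the values of the mice alone. P-values of the order of the members measure the spread over all 6 libraries. Levels per kb and shares used the longest coding transcript of each gene in GENCODE M21. Shares, ratios and the summed level were tested by exact two-sided permutation over samples. The tests were checked on simulated data. Genes named were all members, the 4 of each list with the smallest p, and the 3 most like each member (log2 CPM, prior count 2); exceptions are marked. Members and lists were chosen with earlier results of these data known. Alternatives covered scaling, filters, tools, a replicate block, Rn45s and each library left out.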

Additional observations from a re-analysis of the deposited data

How the results depend on the processing

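Of 288 comparisons of a result with an alternative setting, 261 were labelled the same. For fold changes of members this meant the same direction and side of the threshold, and for list medians a shift within the spread between replicates. For shares, ratios and the summed level it meant the same direction alone, and for genes called the same number. The replicate block leaves the mean differences of shares, ratios and the summed level unchanged by arithmetic, so it could not alter their labels. Genes called numbered 95 with no filter on low counts (16491 genes tested), 1 in DESeq2 over 16479 genes and 1 in DESeq2 over 11697 genes of the edgeR filter (added after seeing the data), against 0, and 0 to 25 with single libraries left out (25 without inotodiol replicate 3); no member was called under any alternative. With library totals alone the log2 fold change of Myh4 was -0.025, the summed adult level differed by -632 CPM, and the medians were -0.027 for the fast, -0.077 for the regulator and -0.012 for the thick filament list. The median of all genes at that setting was -0.12. With limma-voom the median of the other myosins was -0.091. With single libraries left out, the log2 fold change ranged from -0.029 to 0.26 for Myh7. The medians ranged from 0.066 to 0.13 for the fast list, from -0.14 to 0.14 for the slow list, from -0.098 to 0.32 for the other myosins, from -0.053 to 0.13 for regulators and from -0.31 to 0.18 for the developmental list. Differences in share ranged from -1.07 to -0.013 points for Myh4, from -0.17 to 0.40 points for Myh1, from -0.021 to 0.64 for Myh2 and from -0.048 to 0.074 for Myh7. Differences in log2 ratio ranged from -0.14 to 0.0499 for Myh4 over Myh1, from -0.16 to 0.13 for Myh1 over Myh2 and from -0.087 to 0.14 for Myh2 over Myh7. The summed level differed by 3906 CPM without Rn45s under TMM scaling; library totals without Rn45s were added after seeing the data. The cause was not tested.

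The labels state no shared day or litter behind the replicate numbers, so the numbers were not taken to pair the mice. Deviations of same-numbered libraries correlated at -0.081, 0.11 and 0.022, and those of libraries with different numbers at -0.13 to 0.097. With the replicate block 0 genes were called and Myh3 stood at 0.52. With 3 mice per group, the exact tests of shares, ratios and the summed level could not reach 0.05.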

Other observations

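The genes given here were picked after their values were seen. Myh6, the cardiac alpha chain, was counted at 618, 546 and 559 reads in inotodiol libraries 1 to 3 and 712, 861 and 449 in vehicle libraries 1 to 3, while the other heart markers were nearly absent. Nppb and Myl7 were at 0 in all 6 libraries, and Nppa, Tnni3 and Ryr2 had at most 4 counts in any library. The count of Mhrt, which lies between Myh6 and Myh7 on chromosome 14 and overlaps Myh7 on the opposite strand, was 0.80 to 0.86 of the Myh6 count in every library. The ratio of Myh6 to Myh7 was less constant, at 0.21, 0.24 and 0.18 in inotodiol libraries 1 to 3 and 0.27, 0.29 and 0.21 in vehicle libraries 1 to 3. That of Mhrt to Myh7 was 0.18, 0.19 and 0.15 in inotodiol libraries 1 to 3 and 0.23, 0.24 and 0.17 in vehicle libraries 1 to 3. Of the 50-base stretches of the Myh7 transcript 22.2% are also in that of Myh6. Whether reads of Myh7 were counted to Myh6 or Mhrt was not tested.

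The noncoding gene 2310065F04Rik, which lies between Myh3 and Myh2 on the strand opposite to them, had 34.3, 43.3 and 38.8 CPM in inotodiol libraries 1 to 3, against 36.97, 23.97 and 39.5 in vehicle libraries 1 to 3. The groups overlapped, and its log2 fold change was 0.21 ± 0.21 (SE).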
